A study of Mus musculus with 18 samples.

Results

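The genes Hes1, Nrarp, Dtx1, Notch1, Notch3, Ptcra and Il2ra, known as direct targets of Notch signalling in T cells, were examined in 4 deposited lists of mouse ChIP-seq regions. Each gene was represented by a window of 25 to 77 kb fixed by position on the mm9 build, 346 kb in all, and every listed region with 1 or more bases in a window was a member. The windows held 73 of the 60531 listed regions, of which 15 were for H3K27me3, 38 for H3K4me3 and 11 for H3K9ac, with 9 peaks of Notch1. The study compared normal CD4+ CD8+ (DP) thymocytes with T cell acute lymphoblastic leukaemia (T-ALL) tumours that over-express Notch1-IC, the intracellular part of the Notch1 receptor. For each histone mark there were 2 DP and 2 T-ALL libraries, and Notch1 was precipitated in 1 T-ALL library. Micrococcal nuclease cut the chromatin for the histone marks, with 2 input libraries per cell type, and sonication that for Notch1, with 1 input. The sources used here give no strain, age, promoter driving Notch1-IC or number of animals for either group, and do not say whether the replicates came from separate animals. The identity of the cells could not be checked against marker genes, since the lists hold no expression or signal level.

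Each histone list holds regions from the comparison of T-ALL with DP, drawn in green or in red. The sources used here do not state which colour stands for more signal in T-ALL, or that a colour means the same direction in each list, so colours are given as listed and no direction is drawn from them. The lists carry no value per library or per region, so the depth is unknown, no spread between replicates can be given and no test between samples was possible. Members are described by their position, width, colour and shared bases, with the same measure over the whole list beside them.

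Notch receptors are cut after binding a ligand on a neighbouring cell, and the freed intracellular part enters the nucleus, joins the DNA-binding protein RBPJ and Mastermind coactivators, and switches on target genes. In the thymus, Notch1 signalling commits progenitors to the T lineage and drives early thymocyte stages, and it is low in normal DP cells. Mutations that activate Notch1 are common in T-ALL. H3K4me3 and H3K9ac are found at active gene starts, whereas Polycomb complexes place H3K27me3 on silent genes.

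RefSeq promoters (GRCm38.p6) were matched for 6 of the 7 genes, Hes1 being the gene without an entry. They were searched on both strands for TGGGAA, the core of the motif that RBPJ binds. The motif occurred in the promoter of Ptcra, which encodes the invariant chain of the pre-T cell receptor, and in no other of the 6 promoters of 300 bases each, against 25.6% of the 32851 promoters in the table. Ptcra had 2 matches, on the strand of the gene, beginning 84 and 32 bases before the gene start, and 3.79% of all promoters had 2 or more. This cut is the count of Ptcra itself, and a match is not a binding site. The longer form GTGGGAA was in 0 of the 6 promoters and in 6.38% of all. The 250 bases before the start are shown for Ptcra, for Il2ra, whose window held the widest H3K4me3 region, and for Nrarp, whose window held a Notch1 peak, with TGGGAA in capitals. They lie on GRCm38.p6 at chr17:46763713-46763962 (minus strand), chr2:11642542-11642791 (plus strand) and chr2:25180508-25180757 (plus strand). These positions were not placed on mm9, so no listed region was assigned to a promoter, exon or intron.
Ptcra: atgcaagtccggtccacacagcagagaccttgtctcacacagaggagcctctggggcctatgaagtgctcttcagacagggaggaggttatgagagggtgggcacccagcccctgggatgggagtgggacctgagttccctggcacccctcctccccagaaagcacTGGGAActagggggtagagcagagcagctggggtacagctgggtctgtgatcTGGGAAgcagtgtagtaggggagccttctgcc
Il2ra: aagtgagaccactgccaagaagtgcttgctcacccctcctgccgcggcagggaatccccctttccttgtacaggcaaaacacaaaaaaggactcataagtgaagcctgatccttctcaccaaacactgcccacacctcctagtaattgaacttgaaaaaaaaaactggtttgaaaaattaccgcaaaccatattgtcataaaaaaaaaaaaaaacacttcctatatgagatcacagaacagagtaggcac
Nrarp: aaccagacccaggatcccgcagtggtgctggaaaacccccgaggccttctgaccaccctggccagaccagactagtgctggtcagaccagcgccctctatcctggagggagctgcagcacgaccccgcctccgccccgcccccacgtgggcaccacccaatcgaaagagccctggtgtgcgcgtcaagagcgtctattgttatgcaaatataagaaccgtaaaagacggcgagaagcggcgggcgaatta

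The promoters differed in CpG content. The 300 bases held 21 CpG dinucleotides for Nrarp, 26 for Dtx1, 23 for Notch1 and 25 for Notch3, against a median of 7 over all promoters. Ptcra held 1 and Il2ra held 3. The GC content of Ptcra (61.7%) was above the median of all promoters (52.7%), and that of Il2ra (42.7%) was below it. The 2 promoters with fewer CpG dinucleotides than the median belong to the 2 genes whose windows held no Notch1 peak. This was seen in 6 promoters only, without Hes1, and a link between CpG content and Notch1 peaks was not tested.

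Across the windows the colours were uneven in each mark. All 15 H3K27me3 regions were red, whereas red made up 57.4% of the whole list. Green H3K27me3 was listed 0 times in 15 regions, which allows a share of up to 20.0% (taking 3 counts as the limit, here and for other counts of 0) against 42.6% in the whole list. Of the H3K4me3 regions 32 of 38 (84.2%, 95% Clopper-Pearson interval 68.7 to 94.0) were green, against 47.9% of the list. All 11 H3K9ac regions were green, against 50.7% of the list, and 0 of 11 red regions allows up to 27.3%. These intervals cover counting error only, and neighbouring regions of 1 locus are not independent.

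**Figure D1:**
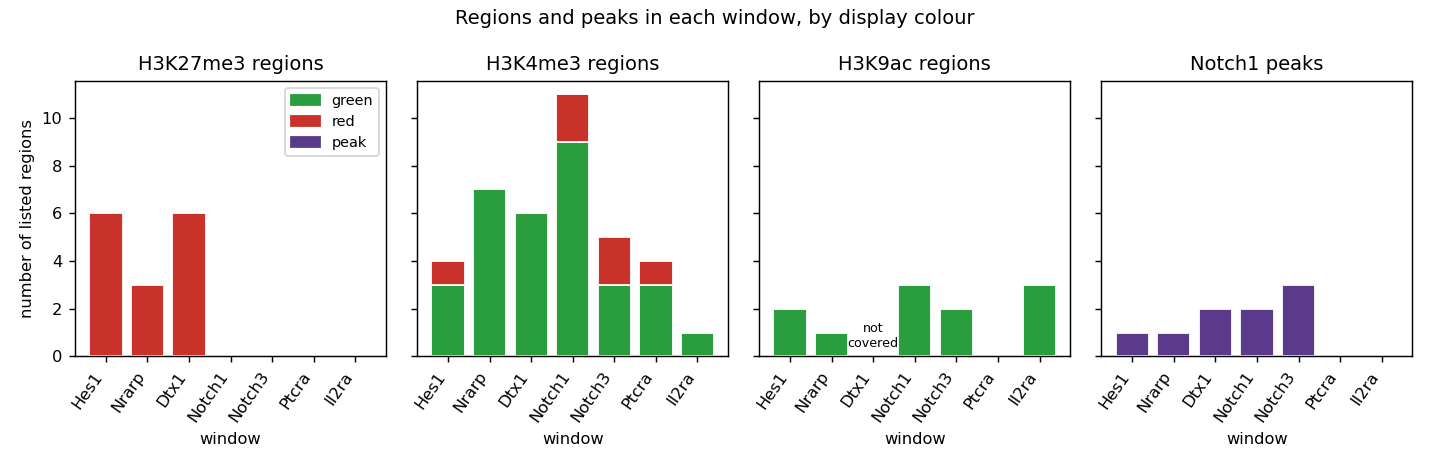
Number of listed regions (vertical axis) in each window (horizontal axis), stacked by display colour, for the 3 histone marks and the Notch1 peaks. Red H3K27me3 regions are in the Hes1, Nrarp and Dtx1 windows only, and green H3K4me3 regions are in all 7.

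Listed regions were denser in the windows than over the span of the whole lists. They held 109.8 H3K4me3 regions per Mb against 8.35 per Mb over the span of the whole list, 43.4 H3K27me3 regions per Mb against 8.90, and 26.0 Notch1 peaks per Mb against 5.71. For H3K9ac the density was 37.4 per Mb in 6 windows against 1.31. The H3K9ac list has regions on 11 chromosomes and none on chromosome 5, so the Dtx1 window was not analysed for that mark. Counted by covered bases, the H3K4me3 density was 22.7-fold that of the whole list, against 13.1-fold by regions. The windows were placed at genes, whereas the span runs from the first to the last region of each chromosome, with or without genes. Windows at other genes were not counted, so these values do not set Notch targets apart from other genes. The same limit holds for the covered share given below for Hes1, and for every other share or distance set beside a whole list.

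The H3K27me3 regions were in 3 of the 7 windows. All 15 lay in the windows of Hes1, Nrarp and Dtx1, which encode regulators of the pathway or its outputs, 102 kb in all. The windows of the 2 receptor genes (143 kb) and of Ptcra and Il2ra (101 kb) held none of either colour. The nearest red H3K27me3 region was 10.8 kb from the Notch3 window, 15.5 kb from that of Ptcra, 239.2 kb from that of Notch1 and 598.9 kb from that of Il2ra.

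**Figure D2:**
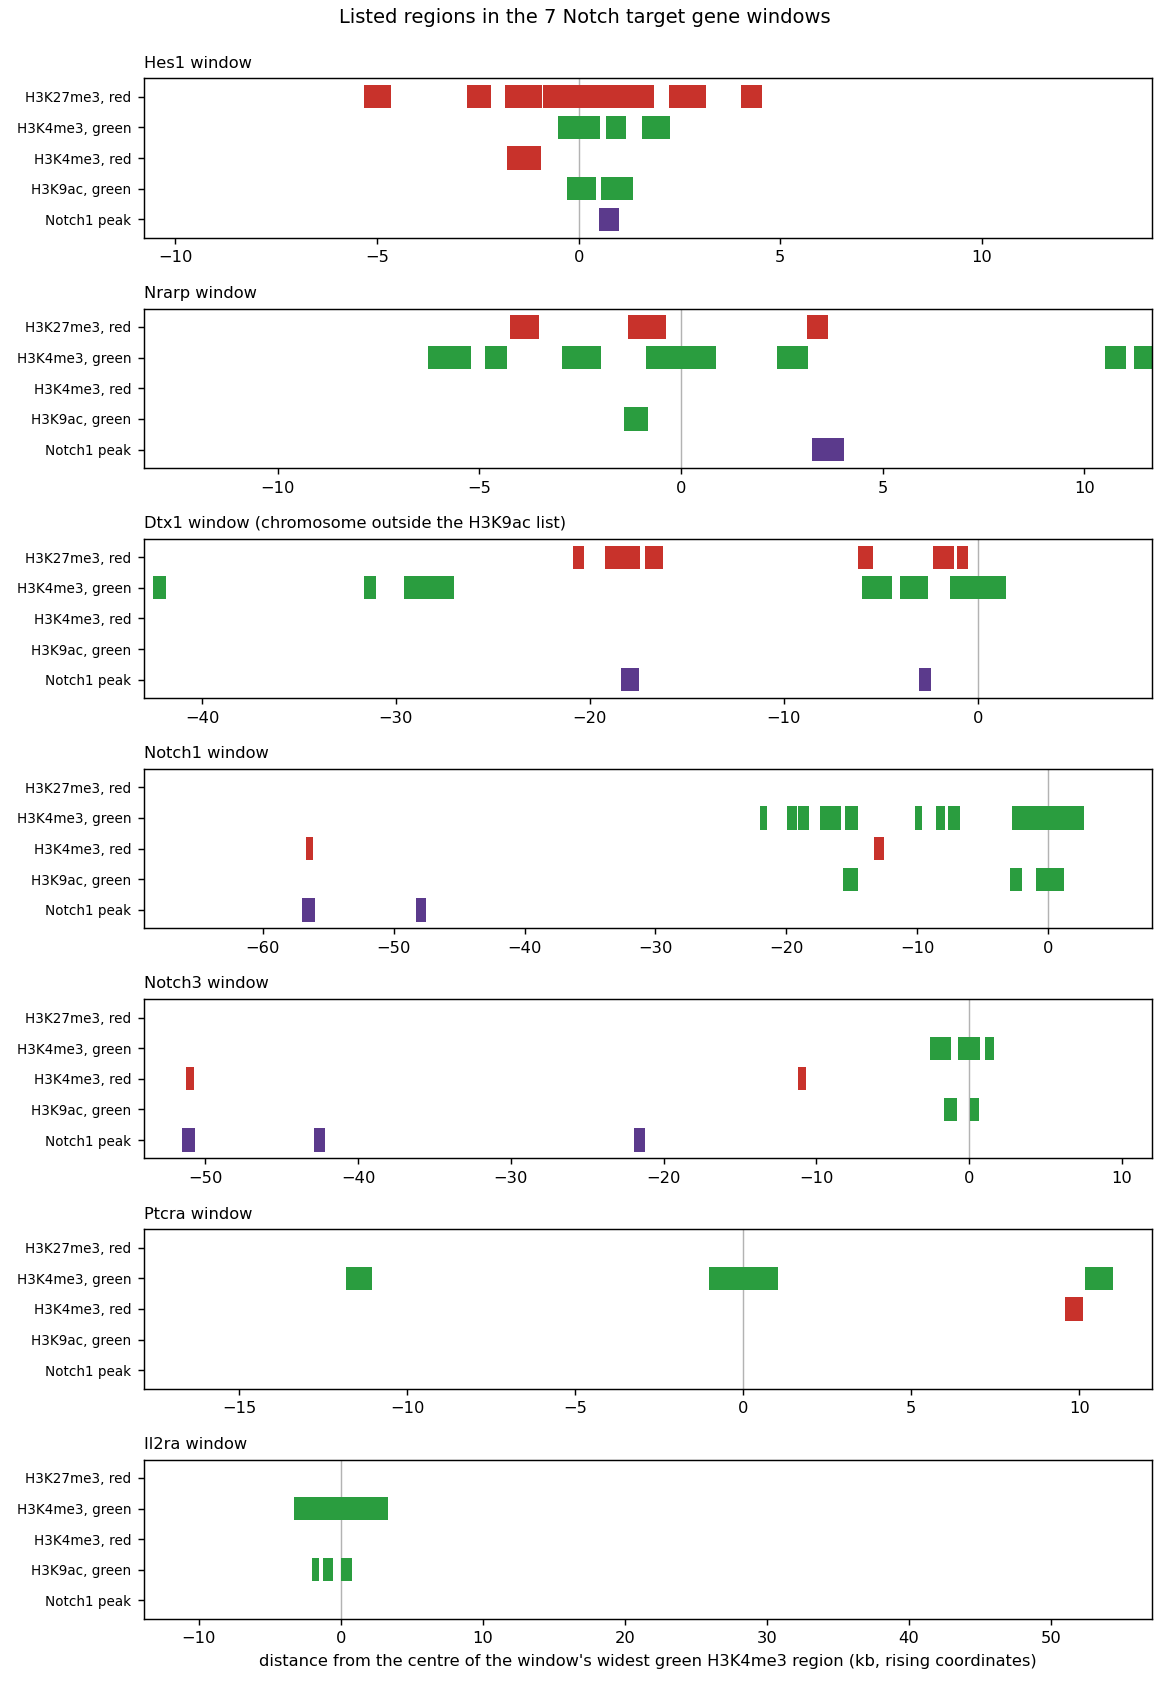
Position of every listed region in the 7 windows, as distance in kb from the centre of the widest green H3K4me3 region of the window, with 1 row for each list and colour. Notch1 peaks lie among H3K27me3 and H3K4me3 regions in the Hes1, Nrarp and Dtx1 windows, and 18625 bp or more from the green H3K4me3 regions inside the Notch1 and Notch3 windows.

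Hes1, a transcriptional repressor of the basic helix-loop-helix family, had the tightest stack of marks. Its window (chromosome 16, 30055001 to 30080000) contains the position at which the deposited files open for display. The 6 red H3K27me3 regions lay between 30060451 and 30070325 and covered 25.5% of the window, against 0.739% of the span of the whole list. The widest, 2750 bp from 30064901 to 30067650, ranked 179 of 13012 red regions by width. It contained 2 of the 3 green H3K4me3 regions of the window whole and 300 bp of the other. It also contained the 2 green H3K9ac regions, of 725 and 800 bp, and the single Notch1 peak, of 500 bp from 30066276 to 30066775.

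That Notch1 peak was among the narrowest listed, since no peak in the list is under 500 bp. It shared 450 bp with the second H3K9ac region, 325 bp with the middle green H3K4me3 region and 25 bp with the first. The first, of 1050 bp from 30065251 to 30066300, was the widest green H3K4me3 region of the window. Of the 9030 Notch1 peaks on the chromosomes of the H3K9ac list, 2 (0.0221%) shared bases with red H3K27me3, green H3K4me3 and green H3K9ac regions at once, and the Hes1 peak was 1 of them. This count was not planned, and the combination is the one that the Hes1 peak shows, so its small share is description only. The window also held 1 red H3K4me3 region, of 850 bp from 30064001 to 30064850, which lay inside the red H3K27me3 region just before the widest one. It is the only place in the 7 windows where H3K27me3 and H3K4me3 regions of the same colour met.

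Nrarp, a small ankyrin-repeat protein that acts as a feedback inhibitor of the Notch complex, had green H3K4me3 regions on each side of its red H3K27me3 regions. Its window (chromosome 2, 25025001 to 25050000) held 7 green H3K4me3 regions of 525 to 1725 bp. Of these, 5 formed a run from 25032051 to 25041450 with gaps of at most 5 kb. Single regions were counted as runs, and 1924 of the 7693 runs of green H3K4me3 held 2 or more regions. As many as in the Nrarp run, or more, were held by 55 of the 7693 (0.715%). The widest region of the window, from 25037451 to 25039175, ranked 350 of 10242 and shared 500 bp with a red H3K27me3 region of 950 bp. The 1 green H3K9ac region, of 600 bp from 25036901 to 25037500, shared 500 bp with the same H3K27me3 region and 50 bp with the H3K4me3 region.

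The Nrarp window had 1 Notch1 peak, of 800 bp from 25041551 to 25042350. It shared 400 bp with the red H3K27me3 region from 25041426 to 25041950. It met no green H3K4me3 region, but the end of the run lay 100 bp away. The last 2 green H3K4me3 regions stood apart near the end of the window, and the last ran past it to 25050700.

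Dtx1 encodes Deltex1, an E3 ubiquitin ligase that binds Notch. Its window (chromosome 5, 121120001 to 121172000) held 2 groups of red H3K27me3 regions, 3 from 121142126 to 121146775 and 3 from 121156801 to 121162475. The 6 green H3K4me3 regions were 600 to 2875 bp wide, and the widest, from 121161551 to 121164425, ranked 58 of 10242. Another of 2550 bp, from 121133426 to 121135975, ranked 99 and met no other list. The widest contained a red H3K27me3 region of 550 bp whole and shared 200 bp with a second of 1075 bp.

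The 2 Notch1 peaks of the Dtx1 window differed in the marks they met. The peak of 950 bp from 121144576 to 121145525 lay wholly inside the widest red H3K27me3 region of the window, 1825 bp from 121143751 to 121145575, and was 8600 bp from the nearest green H3K4me3 region. The peak of 650 bp from 121159951 to 121160600 shared 500 bp with the green H3K4me3 region from 121159001 to 121160450, and was 75 bp from a red H3K27me3 region.

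Red H3K27me3 met green H3K4me3 in each of these 3 windows. Of the 15 red H3K27me3 members 7 (46.7%, 21.3 to 73.4) shared bases with green H3K4me3, against 1.45% of all red H3K27me3 regions, so that these windows held 7 of the 189 such regions in the list. With at least 50% of the H3K27me3 region covered the share was 26.7% (4 of 15) against 0.423%. Seen from the other mark, 7 of 32 green H3K4me3 members met red H3K27me3 (21.9%, 9.28 to 40.0), against 1.84%. Red H3K27me3 met red H3K4me3 in 1 of 15 members (6.67%, 0.169 to 31.9), and the 11.4% of the list is within this interval. Green H3K9ac met 2 of the 9 red H3K27me3 members on its chromosomes, in the Hes1 and Nrarp windows, against 0.290% of the list. A Notch1 peak was present in 3 of the 15 (20.0%, 4.33 to 48.1), near the 24.7% of all red H3K27me3 regions.

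The receptor windows had green H3K4me3 regions in a single run each, and their Notch1 peaks lay away from it. The window of Notch1, the receptor whose intracellular part is over-expressed in these tumours (chromosome 2, 26303001 to 26380000), held 9 green H3K4me3 regions. They formed 1 run of 24750 bp from 26350051 to 26374800. With single regions counted as runs, 3 of the 7693 green runs (0.0390%) had as many regions or more. The widest, 5500 bp from 26369301 to 26374800, ranked 7 of 10242. Of the 3 green H3K9ac regions, that of 2150 bp from 26371126 to 26373275 lay inside it and ranked 5 of 952, and that of 900 bp from 26369126 to 26370025 shared 725 bp with it. The third, of 1150 bp from 26356351 to 26357500, ranked 27 and covered a green H3K4me3 region of 1000 bp. A red H3K4me3 region of 800 bp, from 26358701 to 26359500, stood between green ones.

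The 2 Notch1 peaks of the Notch1 window lay at its other end. The peak of 975 bp from 26315076 to 26316050 ranked 1024 of 14569, the widest of the 9 members, and contained a red H3K4me3 region of 500 bp. The peak of 725 bp from 26323776 to 26324500 met no histone region. The nearest green H3K4me3 region to these peaks, 12900 and 21600 bp away, was outside the window, and the 5500 bp region was 44.8 kb from the nearer peak. Whether reads from the over-expressed Notch1-IC sequence contribute to the regions or peaks of this window was not tested.

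Notch3, a second receptor of the family expressed in thymocytes, showed a like layout on a smaller scale. Its window (chromosome 17, 32248001 to 32314000) held 3 green H3K4me3 regions in a run from 32299426 to 32303650, of 1400, 1450 and 600 bp. The 2 green H3K9ac regions shared 475 bp with the H3K4me3 region of 1400 bp and all 575 bp with that of 1450 bp. Of the 3 Notch1 peaks, the peak of 850 bp from 32250476 to 32251325 contained a red H3K4me3 region of 550 bp. The other peaks, each 750 bp wide, from 32259101 to 32259850 and from 32280051 to 32280800, met no histone region. A further red H3K4me3 region of 550 bp, from 32290776 to 32291325, met no other list.

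In the 2 receptor windows, 2 of the 4 red H3K4me3 regions lay wholly inside a Notch1 peak. Over all windows 2 of 6 red H3K4me3 members met a peak (33.3%, 4.33 to 77.7), against 17.2% of the list. With 6 regions this difference was not detectable.

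The T cell surface genes had green H3K4me3 and no listed Notch1 peak. The Ptcra window (chromosome 17, 46882001 to 46912000) held 3 green H3K4me3 regions, the widest of 2050 bp from 46898801 to 46900850, which ranked 214 of 10242. The others, of 775 and 825 bp, lay near the ends of the window. A red H3K4me3 region of 525 bp, from 46909401 to 46909925, ended 75 bp before the last green one. No H3K9ac region was listed, although chromosome 17 is in that list. The nearest Notch1 peak was 15.5 kb beyond the window and 32.3 kb from the widest H3K4me3 region.

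Il2ra encodes CD25, the alpha chain of the interleukin 2 receptor, which marks immature thymocytes and activated T cells. Its window (chromosome 2, 11553001 to 11624000) held a single H3K4me3 region, 6675 bp wide from 11563526 to 11570200, which was the widest of all 10242 green regions. It contained the 3 green H3K9ac regions of the window, of 500, 750 and 775 bp. Among green H3K4me3 regions on the chromosomes of the H3K9ac list, 4 of 6520 (0.0613%) held 3 or more green H3K9ac regions. This cut was not planned and equals the count of the Il2ra region, and a wider region has more room to meet several. Regions of like width were not compared. The nearest Notch1 peak was 105.0 kb beyond the window and 115.5 kb from the H3K4me3 region.

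**Figure D3:**
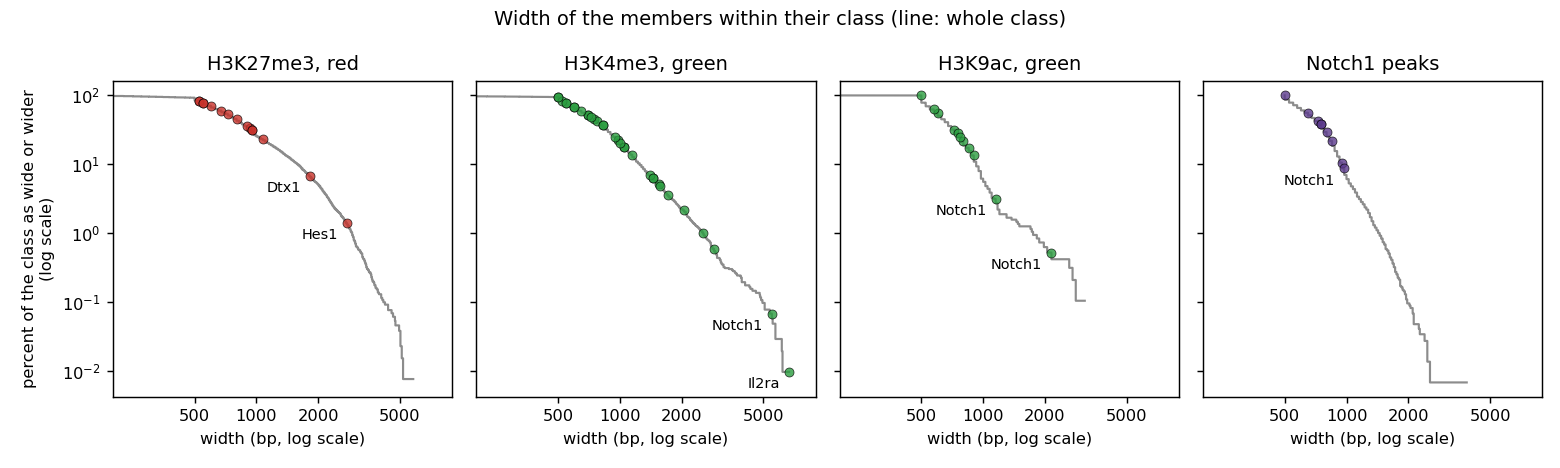
Width in bp (horizontal, log scale) against the percentage of the class that is as wide or wider (vertical, log scale) for the members (points) and for the whole class (line). The Il2ra region of 6675 bp and the Notch1 region of 5500 bp are at the far end of green H3K4me3, while the Notch1 peaks of the windows are 500 to 975 bp wide.

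H3K9ac and H3K4me3 coincided in the 5 windows that held H3K9ac regions. All 11 green H3K9ac members shared bases with green H3K4me3, against 48.5% of all green H3K9ac regions, and 0 of 11 met red H3K4me3, against 30.5%. In the other direction 8 of 26 green H3K4me3 members (30.8%, 14.3 to 51.8) met green H3K9ac, against 7.19% of the list, and 2 of the 26 met 2 or more, against 0.460%. With at least 50% of the region covered the share was 15.4% against 2.79%. Red H3K9ac met 0 of 26 green H3K4me3 members, which allows up to 11.5%, so that the 6.01% of the list is within what this number can show.

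**Figure D4:**
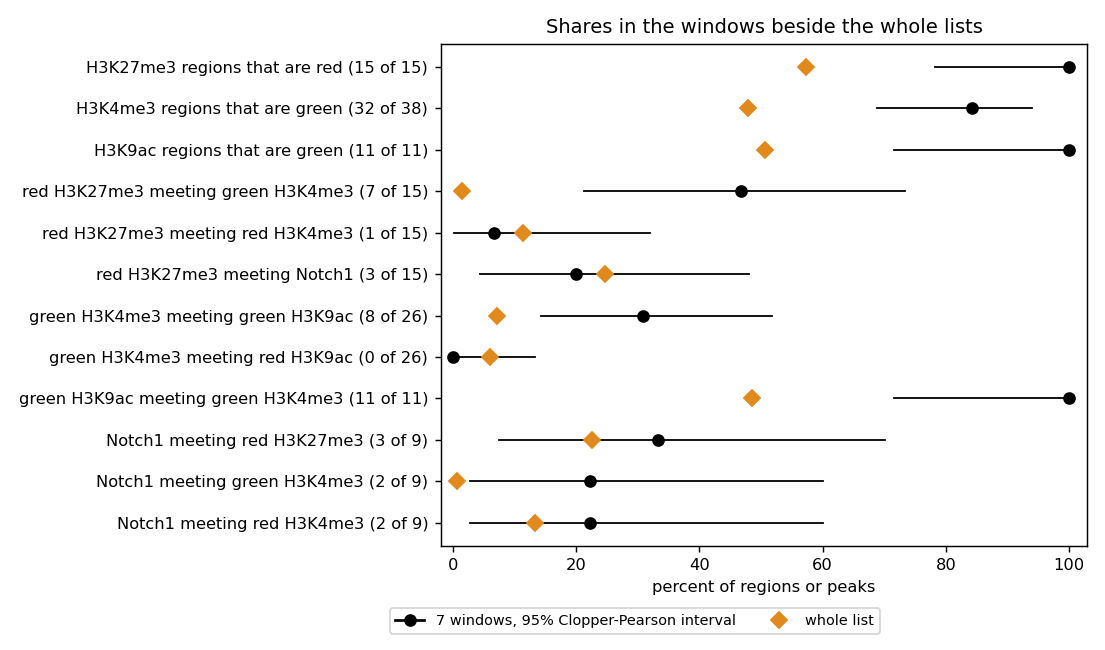
Percentage of regions or peaks in the 7 windows (circles, with 95% Clopper-Pearson intervals) beside that in the whole list (diamonds), with counts in the row labels. The share of red H3K27me3 meeting green H3K4me3 was 46.7% in the windows and 1.45% in the list, while that meeting Notch1 peaks was 20.0% and 24.7%.

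The 9 Notch1 peaks were in 5 windows and met different marks in different windows. Red H3K27me3 was met by 3 peaks (33.3%, 7.49 to 70.1), 1 each in the Hes1, Nrarp and Dtx1 windows, against 22.6% of all peaks. Green H3K4me3 was met by 2 peaks (22.2%, 2.81 to 60.0), in the Hes1 and Dtx1 windows, against 0.673%. Red H3K4me3 was met by 2 peaks (22.2%, 2.81 to 60.0), in the receptor windows, and the 13.3% of all peaks is within this interval. Counted by regions, 3 of 32 green H3K4me3 members met a Notch1 peak, against 1.02% of the list. Of these 3 regions, 2 met the same Hes1 peak, 1 of them by 25 bp only. Green H3K9ac was met by 1 of the 7 peaks on its chromosomes, against 0.199%. No histone region met 3 peaks, all in the receptor windows (33.3%, 7.49 to 70.1). The 67.1% of all peaks is within this interval. When only the wider part of each list was kept, from its median width up, 1 of 7 peaks (14.3%) met red H3K27me3 and 0 met green H3K4me3 or green H3K9ac.

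The distances to the nearest regions differed by mark. A green H3K4me3 region lay within 5 kb of 3 of the 9 peaks, against 6.21% of all peaks, and the median distance was 12900 bp for the members and 65875 bp for all peaks. A red H3K27me3 region lay within 5 kb of 4 of the 9, against 32.2%. These 4 were the peaks of the Hes1, Nrarp and Dtx1 windows, at 0, 0, 0 and 75 bp, and the 5 peaks of the receptor windows were 13275 to 260000 bp from one. Since the receptor windows hold no H3K27me3 region, this split follows from where those regions lie, and the count of 4 is near the share of all peaks. Red H3K4me3 lay within 5 kb of 3 of the 9 peaks (33.3%), which is near the 29.8% of all peaks. These 3 were the Hes1 peak, at 1425 bp, and the 2 receptor peaks that contained a red H3K4me3 region. The 5 peaks of the receptor windows were 0 to 9975 bp from one. The Nrarp peak was 23175 bp away, and the Dtx1 peaks were 66900 and 53375 bp away.

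**Figure D5:**
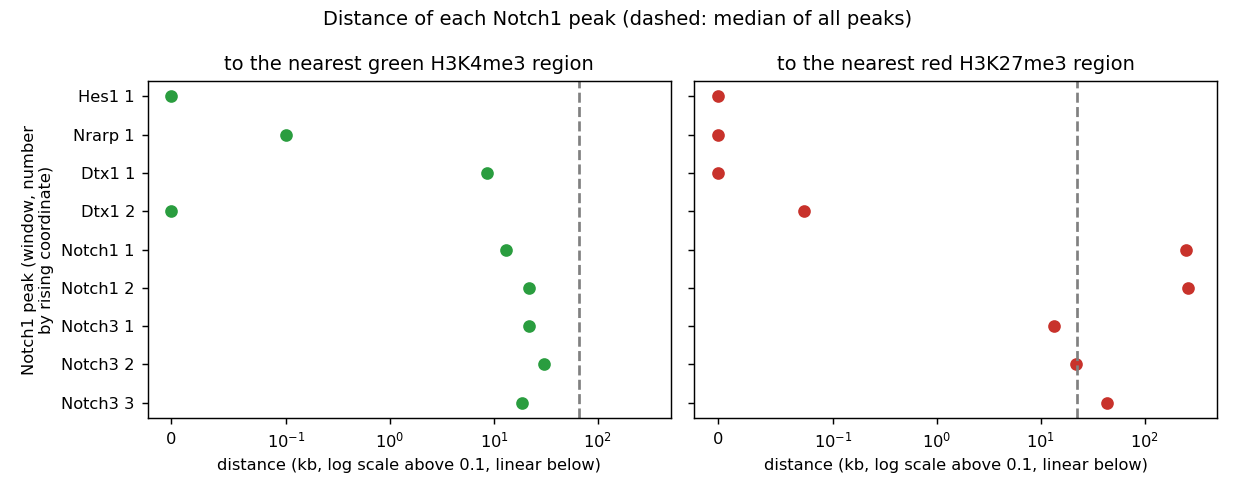
Distance in kb (log scale above 0.1 kb) from each of the 9 Notch1 peaks (rows, numbered by position within a window) to the nearest green H3K4me3 and red H3K27me3 region, with the median of all Notch1 peaks dashed. The 4 peaks of the Hes1, Nrarp and Dtx1 windows are within 75 bp of a red H3K27me3 region, and the 5 others are over 13 kb away.

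The windows set which regions were counted. The last green H3K4me3 region of the Nrarp window crosses its end. Of the members wholly inside a window, the nearest to an edge was a green H3K4me3 region of 700 bp in the Dtx1 window, 450 bp inside it. The nearest region left out was a green H3K4me3 region of 525 bp, 825 bp before the Notch1 window. Within 5 kb outside the edges lay 3 green and 3 red H3K4me3 regions, 1 green and 1 red H3K9ac region, and 0 H3K27me3 regions or Notch1 peaks. In the GRCm38 annotation the nearest protein-coding genes include Sec16a and Egfl7 beside Notch1, Rasal1 and Oas2 beside Dtx1, and Rbm17 and Il15ra beside Il2ra. Which of the listed regions belong to neighbours rather than to the named genes was not tested.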

How the data were processed

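The 18 libraries (8 DP, 10 T-ALL) were made from cells fixed in 1% formaldehyde for 10 min and sequenced as 36 bp reads, of which 34 bp were kept, per the labels' protocols. Reads were aligned with BWA to mm9 (NCBIM37), per the submitters' processing notes. The sources used here do not give the region and peak callers, their thresholds, the use of inputs or how replicates were combined. In the deposited lists the BED score equals 1000 throughout and carries no measurement, so positions, widths (multiples of 25 bp) and display colours were used. Depth per region is unknown.

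Windows were set by position on mm9, with starts converted to 1-based. Python 3.11.15, pandas 2.3.3 and scipy 1.17.1 were used. Sharing meant 1 bp or more, on chromosomes present in each of the lists compared. Runs joined regions of 1 colour with gaps up to 5 kb, and a region without such a neighbour counted as a run of 1. The overlap code was checked on simulated intervals. The members, windows and lists were chosen with earlier results of these data known, so no set test was made. In each window, Notch1 peaks and H3K9ac regions, regions meeting a peak and the widest regions are named. Other pathway genes were not analysed here, since no mm9 annotation was used. The planned fits per library needed values per library and were not made.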

Additional observations from a re-analysis of the deposited data

How the results depend on the processing

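The alternatives were windows trimmed by 5 kb, membership by 50% of a region, regions at or above the median width, merging within 1 kb, shares of bases, 50% coverage for sharing, and leaving out each window. Of 75 alternatives on 15 results, 71 stayed within the counting error of the value or within 1.5 times the count. This tally is no measure of stability. Some alternatives could not move, such as those that left out a window without members. Small counts also have wide intervals. The share of Notch1 peaks meeting red H3K27me3 fell from 33.3% to 14.3% and stayed within 7.49 to 70.1. The green share of H3K4me3 ran from 77.8% (merged) to 92.6% (median width). The green shares of H3K27me3 and H3K9ac were 0% and 100% in all settings tried. These 2 shares could not move, since the members of each of these marks were all of 1 colour. At or above the median width, the shares of Notch1 peaks meeting green H3K4me3 and green H3K9ac were 0%. By covered bases the H3K4me3 density was 22.7-fold. With GTGGGAA the number of promoters with the motif was 0. The alternatives for red H3K27me3 meeting green H3K4me3 and green H3K9ac meeting green H3K4me3 were chosen after seeing the data. No paired analysis was possible because values per library were not at hand, which also prevented leaving out a replicate. A region that is not listed may lie under a threshold that the sources used here do not give.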
